A study of Homo sapiens with 3 samples.

Results

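The homologous recombination genes described here were BRCA1, BRCA2, BARD1, PALB2, RAD51C, RAD54L, XRCC2, XRCC3 and RBBP8, which encodes CtIP. They were chosen by name, with earlier results of these data known. Every non-control probe that the array design lists under one of these symbols was taken. This gave 9 of 27274 gene names and 10 of 34127 probes. XRCC3 had 2 probes and each other gene had 1. The cells were HepG2, an established human liver cancer line with wild-type p53, and the drug was etoposide, which traps topoisomerase II on DNA and so leaves double-strand breaks. Control cells (0 μM etoposide, labelled untreated in the deposited records and DMSO in the study), cells given the low dose (10 μM) and cells given the high dose (100 μM) were all collected after 30 h. The study chose these doses to set cells heading mainly to senescence against cells heading mainly to apoptosis. Each condition had 1 single-color Agilent array, with no replicate culture, so every fold change below describes these 3 arrays, with the spread between repeated spots of an array as its only error.

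Homologous recombination repairs a double-strand break by copying the intact sister chromatid, and it therefore works mainly in the S and G2 phases of the cell cycle. A strand of each broken end is first cut back, a step that CtIP starts together with the MRE11 nuclease, and the bared strand is coated by the RPA complex. BRCA1, held stable by its partner BARD1, promotes this step and recruits PALB2, which brings BRCA2 to the coated strand. The related proteins RAD51C, XRCC2 and XRCC3 then help to prepare the strand for pairing, and the motor protein RAD54L helps it to invade the sister duplex.

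Of these 9 genes, 4 passed 1.5-fold both as higher than control with 10 μM and as lower with 100 μM. BRCA1 was 2.09-fold higher at 10 μM and 3.69-fold lower at 100 μM, and RAD51C, BRCA2 and RAD54L showed the same pair of directions. BARD1 and RBBP8 were lower at the high dose (4.06-fold and 2.94-fold) without having passed 1.5-fold at the low dose. PALB2 had the smallest difference between the doses among the genes with a RefSeq probe, and XRCC3 depended on which of its probes was read. The signals are given below as the deposited background-subtracted intensity, and the fold changes after each array was set to its own 75th percentile, which corresponded to a signal of 514, 536 and 432 at 0, 10 and 100 μM.

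A gene was counted as higher or lower when its scaled signal differed by at least 1.5-fold and the brighter condition was well above background by the scanner software's own call. At the low dose 4 of the 9 genes were higher than control (BRCA1, BRCA2, RAD51C and RAD54L) and 0 were lower, where 9.05% of 16714 genes measured in that comparison were higher and 6.45% were lower. At the high dose 0 were higher and 7 were lower, these being all but PALB2 and XRCC3, against backgrounds of 18.4% higher and 9.68% lower among 16977 genes. Set directly against the high dose, the low dose was higher for 8 genes, all but XRCC3, and lower for 0, against 7.49% and 14.2% of 16791 genes. The share of all genes that passed in both the pattern of higher at 10 μM and lower at 100 μM was 0.614%, or 101 of 16447 genes, and 4 of the 9 genes were among them.

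At a threshold of 2-fold, BRCA1 was the 1 gene higher at the low dose and 0 were lower, beside 3.37% and 1.57% of all genes. The high dose then had 0 genes higher and 6 lower (BRCA1, BRCA2, BARD1, RAD54L, XRCC2 and RBBP8), beside 6.74% and 3.63%. Between the doses, 7 genes were higher at the low dose and 0 lower, beside 3.64% and 3.94%. The median log2 fold change of the 9 genes was 0.55 at 10 μM, -1.56 at 100 μM and 1.73 for the low over the high dose, while the medians of all measured genes were -0.04, 0.10 and -0.11. Because XRCC3 was represented by its brighter probe, the counts were also taken with its RefSeq probe, a choice made after the values were seen. They became 5 higher at the low dose, 8 lower at the high dose and 9 higher for the low over the high dose. That choice measured 13011, 13165 and 13083 genes in the same order, and the shares of these that passed were not counted. With another background correction (normexp), the rises of BRCA2 and RAD54L (0.44 and 0.53 on the log2 scale) and the fall of XRCC2 (-0.55) no longer passed 1.5-fold, and the fall of BRCA2 was -0.60.

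**Figure D1:**
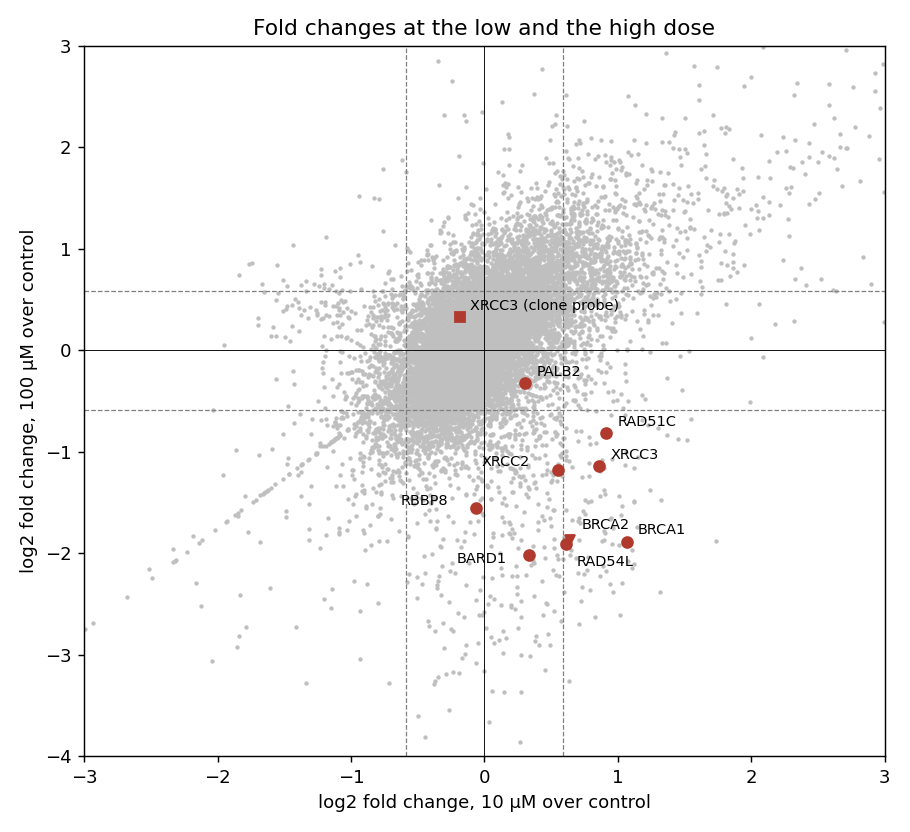
Each gray point is a gene, with its log2 fold change over control at 10 μM on the x axis and at 100 μM on the y axis; dashed lines mark 1.5-fold, and 40 of 16447 genes lie beyond the axes. Red points are the homologous recombination genes, a triangle marks a lower bound for the fall of BRCA2 and a square marks the clone probe of XRCC3; BRCA1, BRCA2, RAD51C, RAD54L and the RefSeq probe of XRCC3 lie in the lower right part, higher at the low and lower at the high dose.

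The BRCA1 and BARD1 proteins form a ubiquitin ligase that is recruited to breaks. The BRCA1 probe (NM_007300, minus strand of chr17:38449948-38450007 on hg18) read 583 in control cells, 1273 after 10 μM and 133 after 100 μM. It was printed 10 times on each array, and the lowest, median and highest spot were 542, 593 and 617 in control cells, 1219, 1266 and 1373 after 10 μM, and 117, 134 and 154 after 100 μM. The 3 sets of spots, before scaling between arrays, did not overlap. How many of the other repeated probes on these arrays were also apart was not counted. The log2 fold change was 1.06 with 10 μM (standard error over spots 0.028) and -1.88 with 100 μM (0.048). The low dose thus stood 7.72-fold above the high dose. Between single BRCA1 spots the SD was 0.072, 0.051 and 0.13 in control, low-dose and high-dose cells. For the probes with 1 spot per array, the values in brackets are SDs of the ratio, borrowed from repeated probes of like signal. Of all measured genes, 97.1% had a smaller value than BRCA1 at 10 μM and 1.10% at 100 μM. BARD1 (NM_000465, minus strand of chr2:215301905-215301964) read 304, 400 and 63.1 in the same order. Its log2 fold change was 0.33 at the low dose (0.077), below the threshold at 1.26-fold, and -2.02 at the high dose (0.13). The falls of RAD54L and BRCA1 differed from that of BARD1 by no more than about the spot SD of its own ratio, and that of BRCA2 is known only as a bound, so these 4 falls have no settled order. With normexp BARD1 was at -1.22.

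PALB2 bridges BRCA1 and BRCA2, and BRCA2 acts at the resected strand, after RPA. The BRCA2 probe (NM_000059, plus strand of chr13:31870996-31871055) read 94.0 in control cells, 153 after 10 μM and 15.4 after 100 μM, where it was not well above background. Its spots, 10 on each array, ran from 85.1 to 106 with a median of 92.4 in the control, and from 143 to 170 with a median of 155 after 10 μM. At the high dose 9 spots were used, since the software marked the other as an outlier, and they ran from 10.1 to 20.3 with a median of 16.5. Here too the 3 ranges were apart before scaling, with the same limit as for BRCA1. BRCA2 was 1.56-fold higher at the low dose, or 0.64 on the log2 scale (standard error over spots 0.040), which was just past the threshold. Its fall after 100 μM was at least 3.65-fold from the control and at least 5.71-fold from the low dose, where the bound sets the dim signal at 21.6, the lowest one well above background on that array. PALB2 (NM_024675, minus strand of chr16:23532837-23532896) read 131, 169 and 87.9. Its signal had the same order as that of its partners, with the low dose brightest and the high dose dimmest, but over a narrow range. The log2 fold changes of PALB2 were 0.31 (0.10) and -0.33 (0.13), and it passed the threshold only between the doses, at 1.55-fold. That call was lost with normexp (0.32 on the log2 scale) and with the percentile taken over every spot (0.57).

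**Figure D2:**
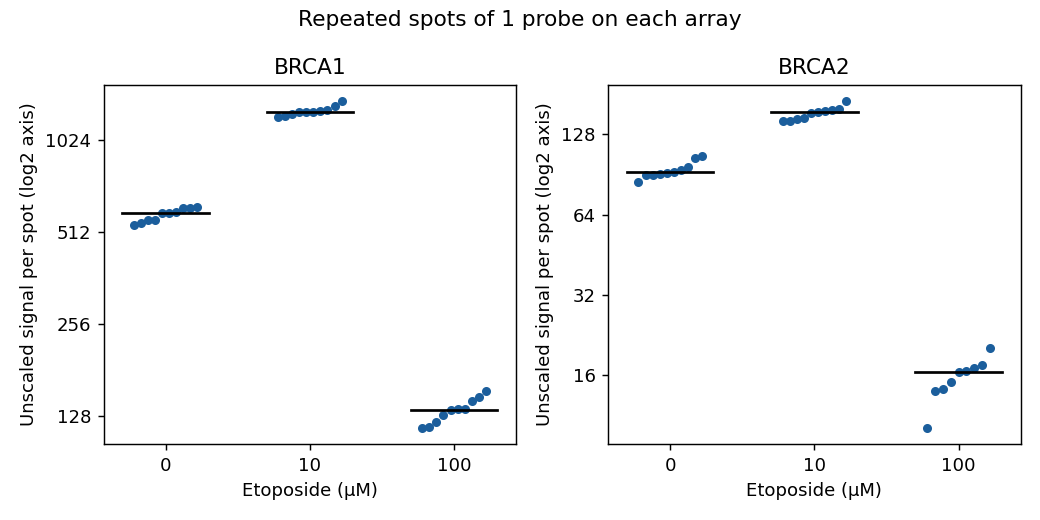
Each point is 1 spot of the BRCA1 or BRCA2 probe, with its background-subtracted signal before scaling between arrays on a log2 axis against the etoposide dose; black lines are medians. For both genes the spots of the 3 arrays form separate bands, from 117 to 154 and from 10.1 to 20.3 at the high dose, and these bands show printing and scanning spread within 1 array, not the spread between cultures.

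RBBP8 encodes CtIP, the cofactor with which MRE11 opens the broken end for resection. Its probe (NM_002894, plus strand of chr18:18860170-18860229) read 680 in control cells, 680 after 10 μM and 194 after 100 μM. The control and low-dose signals were level, and only the high dose stood apart. After scaling the log2 fold change was -0.06 at the low dose (0.069), which was within the spread between spots, and -1.56 at the high dose (0.085), a 2.94-fold fall. It was thus the gene among those measured by a RefSeq probe with no rise at the low dose.

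RAD54L is a DNA translocase of the SWI2/SNF2 family that acts during strand invasion. Its probe (NM_003579, plus strand of chr1:46516625-46516684) read 1523, 2425 and 341 in control, low-dose and high-dose cells. It was 1.53-fold higher at the low dose, or 0.61 on the log2 scale (0.062), close above the threshold, and 3.76-fold lower at the high dose, or -1.91 (0.073). The low dose was 5.74-fold above the high dose.

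RAD51C, XRCC2 and XRCC3 are related proteins that act in larger assemblies, with RAD51C common to the complex that holds XRCC2 and to the complex with XRCC3. RAD51C (NM_002876, plus strand of chr17:54127438-54127497) read 3010 in control cells, 5919 after 10 μM and 1440 after 100 μM. It was 1.88-fold higher at the low dose, or 0.91 on the log2 scale (0.064), and 1.76-fold lower at the high dose, or -0.81 (0.064). The rise of RAD51C was thus second to that of BRCA1, followed by that of the RefSeq probe of XRCC3 described below, while its fall was the smallest of the 7 genes counted as lower. XRCC2 (NM_005431, minus strand of chr7:151974864-151974923) read 156, 237 and 57.7. Its rise of 1.46-fold, or 0.55 (0.10), fell just short of the threshold, within the spot SD of it, and its fall was 2.27-fold, or -1.18 (0.14). In the order of rises among the genes with 1 probe, BRCA2, RAD54L and XRCC2 followed RAD51C and were closer to each other than the spot SD of XRCC2, and BARD1 and PALB2, next in the order, were likewise closer than the spot SD of either.

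XRCC3 gave opposite answers on its 2 probes, which lie on the minus strand of chromosome 14. The probe annotated to the RefSeq transcript NM_001100119 (chr14:103233708-103233767) read 369 in control cells, 699 after 10 μM and 141 after 100 μM. The probe annotated to the cDNA clone CR610241 (chr14:103240487-103240546) read 63558, 58271 and 66936. The RefSeq probe was bright after the low and dim after the high dose, whereas the clone probe was brightest at the high dose and varied little. The log2 fold changes of the RefSeq probe were 0.86 (0.072) and -1.14 (0.091), a 1.82-fold rise and a 2.21-fold fall. Those of the clone probe were -0.19 (0.059) and 0.32 (0.059), neither past the threshold. The first 30 bases of both probes are shown because the letters differ in kind, with capitals in the clone probe marking a stretch that resembles the widespread Alu repeat:
XRCC3 clone probe: CCAGCCTGGGCGACAGAGTGAGtctcttgt
XRCC3 RefSeq probe: tgcctccacatgctgcctggcacagaccag
The last 25 bases of the clone probe are A or T only. Whether transcripts of other loci bind the clone probe was not tested, and the array files carry no repeat annotation.

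**Figure D3:**
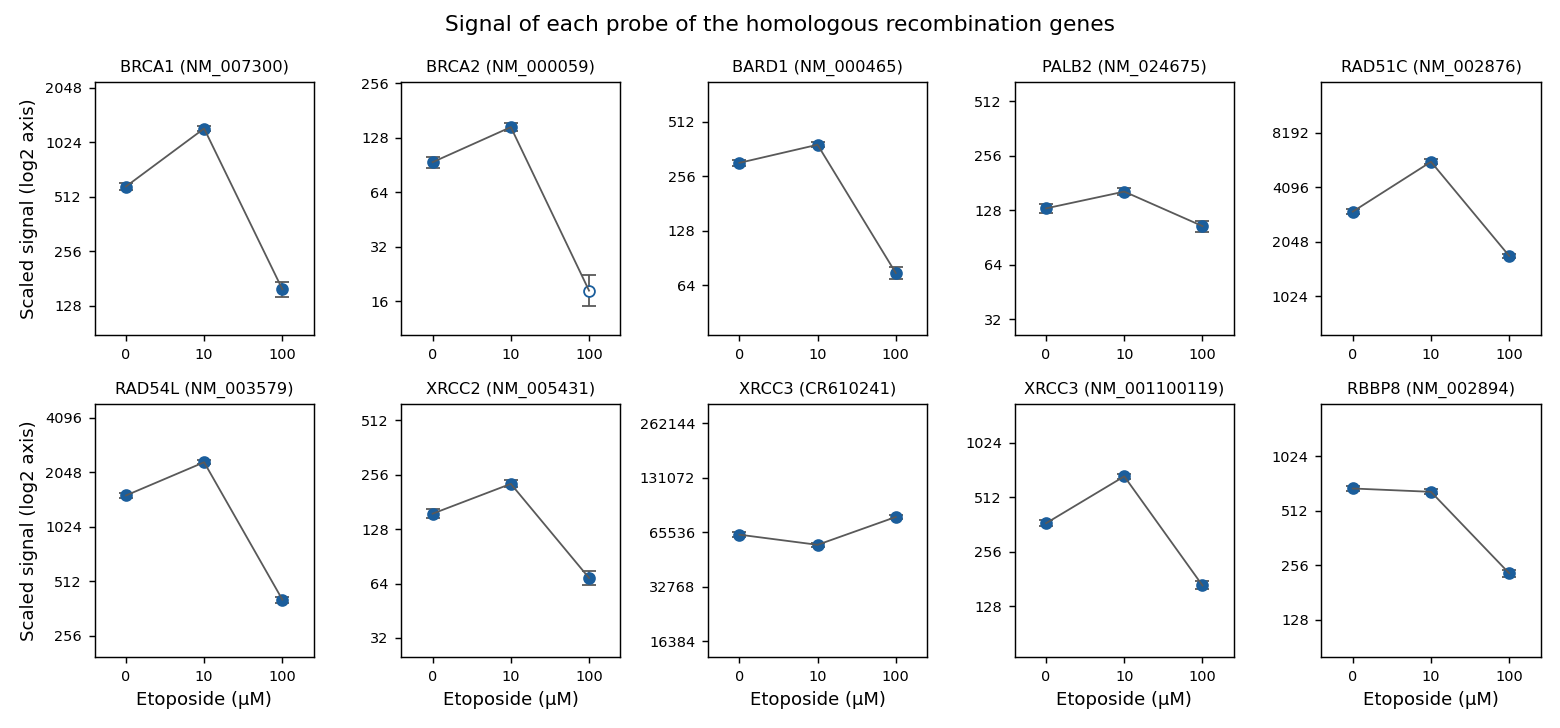
Each panel shows 1 probe, with its signal scaled to the 75th percentile of the control array, on a log2 axis against the etoposide dose. Every panel spans the same 25-fold range. Bars are 1 SD between spots, from their own spots for BRCA1 and BRCA2. For the probes with 1 spot, the SD is borrowed from repeated probes of like signal. The open point of BRCA2 was not well above background. The low-dose point lies above the control in all panels but RBBP8 and the clone probe of XRCC3, and the high-dose point lies below the control in all panels but that clone probe.

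A list of 42 other homologous recombination genes, of which 41 were on the array and measured in every comparison, was read in the same way. At the low dose 10 of the 41 were higher and 1 was lower, with a median log2 fold change of 0.25. At the high dose 3 were higher and 17 were lower, with a median of -0.22. Between the doses 19 were higher at the low dose and 1 was lower, with a median of 0.36. The shares of all genes that passed in each direction are those given above.

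Among 9 genes of end resection, including the nucleases MRE11A and EXO1, the helicase BLM and the subunits of RPA, 3 were higher and 1 was lower at the low dose, and 7 were lower at the high dose. BLM, which unwinds the ends for resection and later dissolves joint molecules, read 470, 1065 and 91.5. It was 2.17-fold higher at the low dose and 4.32-fold lower at the high dose, and EXO1 moved in step with it, with log2 fold changes of 0.96 and -1.91. The MRE11, RAD50 and NBN proteins form a single complex, yet the array read their transcripts differently. MRE11A had log2 fold changes of 0.36 and -0.74 and RAD50 of -0.01 and -0.05. NBN, which read 191, 115 and 94.6, was the 1 gene of the whole list counted as lower after 10 μM, and it was lower at both doses, at -0.80 and -0.77. Of RPA, the complex that coats the resected strand, RPA1 had 0.55 and -0.83, RPA2 0.68 and -0.36, and RPA3 0.36 and -1.03.

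Among 9 genes of strand exchange, 2 were higher and 0 were lower at the low dose, and 1 was higher and 3 were lower at the high dose. RAD51AP1, an accessory factor of strand invasion, went from 104 in control cells to 17.0 after 100 μM, which was not well above background and bounds the fall at no less than 4.04-fold. RAD54B, a relative of RAD54L, read 114, 194 and 51.6, with log2 fold changes of 0.70 and -0.89. Of the other relatives of RAD51C in this list, RAD51L3, now called RAD51D, gave values near those of control cells. Its log2 fold changes were 0.23 and -0.16. RAD51L1, now RAD51B, lay close to background, at 28.6, 30.1 and 26.5. The last was not well above background, so a large fall of RAD51L1 at the high dose could not have been read. RAD52 had 0.40 and 0.28. C9orf119, now SWI5, was the 1 gene of this step that was higher at the high dose, at 0.72.

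BRCA1 also works in complexes other than that with PALB2. BRIP1, the helicase FANCJ that binds its BRCT repeats, read 81.0, 163 and 17.0. It was 1.93-fold higher at the low dose and at least 3.15-fold lower at the high dose. The components of the BRCA1-A complex, which carries BRCA1 to ubiquitin marked breaks, were UIMC1, FAM175A, BRCC3, BRE and C19orf62. Their log2 fold changes were 0.03, 0.14, -0.15, -0.15 and 0.04 at the low dose, and -0.22, -0.11, -0.13, 0.11 and 0.20 at the high dose, so none passed the threshold at either dose while BRCA1 itself passed it at both.

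At the late steps, 2 of 9 genes of joint molecule resolution were higher at the low dose, and 1 was higher and 4 were lower at the high dose. EME1, the partner that makes the MUS81 nuclease active, read 273, 634 and 110. This was the largest rise in the list at the low dose, 2.22-fold. Those of BLM and POLQ, 2.17-fold and 2.16-fold, were too near for the spread between spots to settle the order. EME1 was 2.08-fold lower than control at the high dose. MUS81 itself had log2 fold changes of 0.30 and -0.06. EME2, an alternative partner of MUS81, ran the other way at the high dose, with signals of 29.8, 36.9 and 59.7 and a 2.38-fold rise, at a brightness where the SD between spots was 0.25 on the log2 scale in control cells. C16orf75, now RMI2, a partner of BLM, had log2 fold changes of 1.01 and -1.43.

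Of 8 genes that restrain recombination or divert breaks from it, 2 were higher at the low dose, and 1 was higher and 2 were lower at the high dose. The low-dose rise of FIGNL1 was 1.52-fold, from 25.9 to 41.1. At that brightness the SD between spots was 0.25 on the log2 scale in control cells. After 100 μM FIGNL1 read 5.26, not well above background. Its control signal was so close to background that a fall could not be counted. POLQ, the polymerase of theta-mediated end joining, read 204, 459 and 38.8. It was 2.16-fold higher at the low dose and 4.43-fold lower at the high dose. Its gap between the doses, 9.54-fold, was the largest in the list, with that of BLM, 9.38-fold, too near to settle the order. C12orf48, now PARPBP, which restrains recombination, had 0.27 and -1.87. RTEL1, a helicase that undoes strand invasion, was 1.54-fold higher at the high dose.

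**Figure D4:**
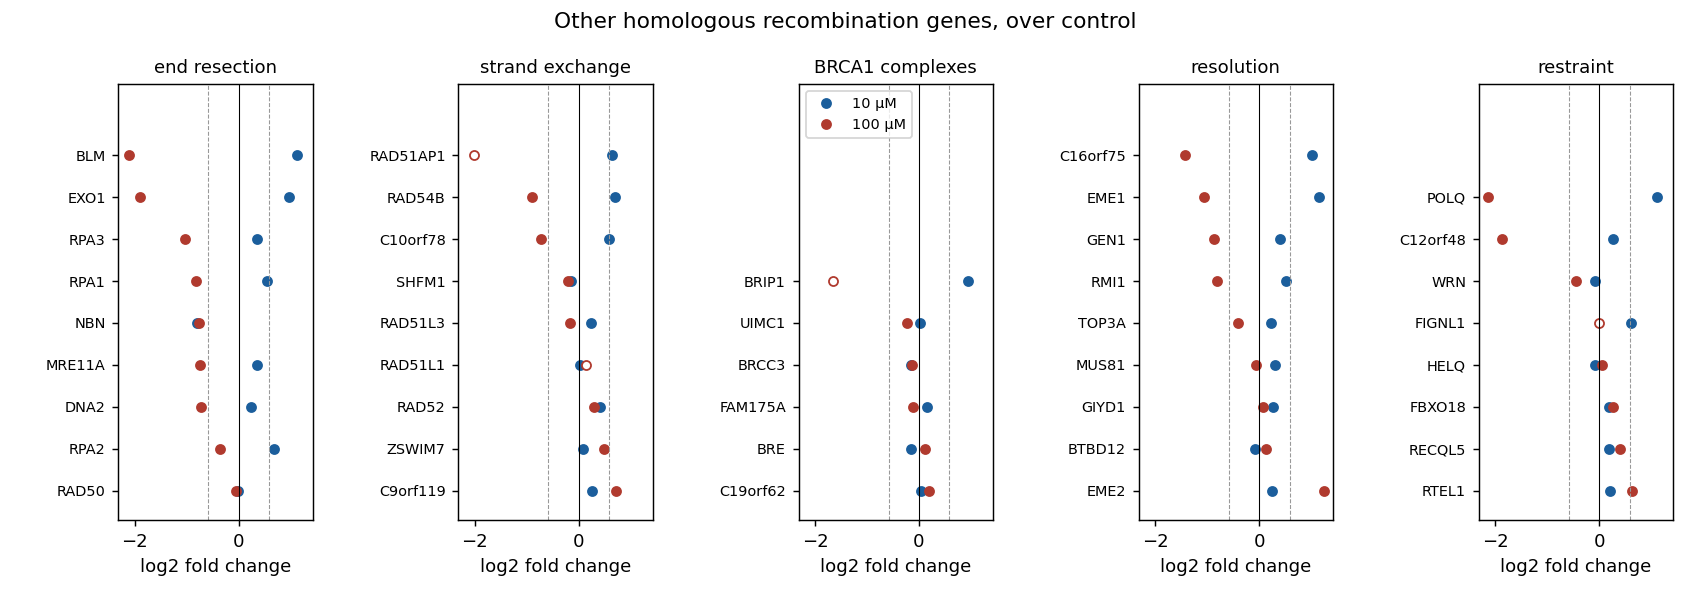
Each row is a homologous recombination gene outside the 9, grouped by role and sorted by its value at the high dose, with log2 fold changes over control at 10 μM (blue) and 100 μM (red); dashed lines mark 1.5-fold and open points are bounds, where a signal was not well above background. BLM, EXO1, RAD51AP1, BRIP1, C16orf75, EME1 and POLQ have blue points on the right and red points on the left, and the BRCA1-A genes UIMC1 to C19orf62 have both points between the dashed lines.

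Other break repair and cell cycle genes were read beside these, against the same shares of all genes. Those were 9.05% higher and 6.45% lower at the low dose, and 18.4% higher and 9.68% lower at the high dose. Of 11 genes of end joining, the route that rejoins breaks without a template, 9 were measured, and LIG4 and APLF were not well above background on any array. At the low dose 0 of the 9 were higher and 0 lower, and at the high dose 0 were higher and 1 was lower, PRKDC, at -0.82. The Fanconi genes, which act upstream of recombination at DNA crosslinks, had 6 of 10 higher at the low dose and 6 of 10 lower at the high dose. These were not all the same genes, since FANCA and FANCM were only higher and FANCC and FANCE only lower. The fall of FANCB, from 38.9 in control cells, is a bound of at least 1.51-fold. FANCD2 read 467, 794 and 85.9, and FANCI read 1074, 1940 and 176, both brightest at the low dose and dimmest at the high dose.

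Genes expressed at the G1/S transition, such as the MCM helicase subunits, had 8 of 16 higher and 0 lower at the low dose, and 0 higher and 12 lower at the high dose, with medians of 0.62 and -1.66. Genes of G2/M, such as CCNB1 and PLK1, had 0 of 12 higher and 1 lower at the low dose, and 12 lower at the high dose, with medians of -0.07 and -2.94. The part of cell cycle position in the values of the homologous recombination genes was not tested. In RNA from whole cultures, fewer cells in S and G2 phase and less transcript per cell cannot be told apart. Of the markers of the tissue of origin, all 8 hepatocyte genes were well above background on every array. AFP was among the brightest, at 79159, 76186 and 62990, and HNF4A was the dimmest, at 50.7, 30.4 and 53.7. Against the same shares of all genes, 1 was higher and 2 were lower at 10 μM, and 2 were higher and 0 lower at 100 μM. The median log2 fold changes of these 8 were -0.01 and 0.49. Of 6 markers of leukocytes, endothelium and fibroblasts, COL1A1 and COL1A2 were not well above background, while PTPRC read 257, 131 and 288, PECAM1 473, 298 and 286, CD3E 46.8, 34.6 and 52.9 and CDH5 47.9, 52.9 and 41.6. The 4 that were measured had a median log2 fold change of -0.61 at 10 μM and 0.23 at 100 μM, and their part in the results was not tested.

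The genes whose pair of fold changes lay nearest the median pair of the 9 genes (0.55 and -1.56) were found among 12040 genes with a RefSeq transcript that were well above background on all arrays. By Euclidean distance over the 2 log2 fold changes, these were RFC4, ANKRD32, ORC6L, TROAP and NUDT1, at 0.029, 0.042, 0.063, 0.080 and 0.12. RFC4, a subunit of the clamp loader of DNA replication, read 4067, 6100 and 1150. ORC6L, a subunit of the origin recognition complex, read 441, 701 and 125. In all, 18 genes lay within 0.25. The median pair is a midpoint, since 0.55 is the value of XRCC2 and -1.56 that of RBBP8. Each of the 9 genes itself lay further than 0.25 from it. The likeness is thus to that midpoint and not to any 1 of the 9, and with 3 arrays it rests on 2 numbers for each gene.

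Promoters of the 9 genes were read for short motifs, since E2F sites, the CHR element and the CCAAT box are known from many cell cycle promoters. All 9 were matched by symbol in RefSeq promoter sequences on GRCh38.p14, from 250 bases before to 50 bases after each start site, and both strands were searched. The E2F letters TTTCCCGC, TTTGGCGC, TTTCGCGC or TTTGCCGC were found in 1 of 9 (XRCC2) and in 3.99% of 27305 genes. The CHR letters TTTGAA were found in 0 of 9 and in 18.2% of genes, and CCAAT in 4 of 9 (BRCA1, PALB2, RAD54L and XRCC3) and in 39.7% of genes. Of 35 other homologous recombination genes in the table, 6, 8 and 19 held these letters in that order. The XRCC2 match is shown with its flanks because it was the only E2F match, with the motif in capitals as it reads on the strand of the gene, where TTTCCCGC lies on the opposite strand (chr7:152676102-152676131, minus strand, GRCh38.p14):
XRCC2 promoter: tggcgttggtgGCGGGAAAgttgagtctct
A match is a description of letters, and these windows do not show which factor was bound in these cells.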

How the data were processed

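Total RNA of HepG2 cells was profiled on single-color Agilent arrays with Cy3 label, 1 per condition. The authors deposited the spot tables written by Agilent Feature Extraction, named with version 10.7.3.1 in the submitters' processing notes, in which the intensity of each spot is background-subtracted and not scaled between arrays. A series table held the same intensity for all 44495 spots of each array. Conditions came from the labels. The 9 genes and the other gene lists were chosen with earlier results of these data known.

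Log2 intensity was averaged over the spots of a probe without the software's outlier spots, and the 75th percentile over probes (each counted once) was subtracted per array. A gene was read on its brightest probe. Of the probes, 20109, 19836 and 20150 were well above background at 0, 10 and 100 μM. The dim side of a ratio was set no lower than the weakest signal that passed this call on the same array (19.5, 22.7 and 21.6). No spot was saturated, and the number of arrays limits the precision.

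With 1 array per condition no test between conditions was made. The SD between spots came from the gene's own 10 spots or from the 50 repeated probes nearest in signal, and covers 1 array only. For a ratio, the SD of each array was divided by the square root of its number of spots and the 2 were combined. The result is a standard error for BRCA1 and BRCA2 and an SD for the probes with 1 spot. Named genes were the 9 with every probe, the 3 largest rises and 3 largest falls among other homologous recombination genes in each comparison, and the 5 nearest profiles. A further gene that this rule names is not reported here and was left out of the lists. Other genes were named to describe a list, with their values already known. The scaling, the choice of the brightest probe and the 1.5-fold calls were run first on arrays simulated from the control array. The other steps were not run on simulated arrays. Probes are placed on hg18 as the deposited files give them, and exon or untranslated region was not analysed here. Python 3.11.15, pandas 2.3.3, numpy 2.4.6, matplotlib 3.10.9, R 4.3.3 and limma 3.58.1 were used.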

Additional observations from a re-analysis of the deposited data

How the results depend on the processing

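No paired analysis was possible because only 1 array was made per condition. The median log2 fold change of the 9 genes kept its sign in each comparison under each of the 13 alternatives. At the low dose it was 0.43 with normexp background correction (offset 50), which counted 2 genes as higher, and 0.44 over the 8 genes well above background on all arrays, without BRCA2. A threshold of 2-fold counted 1. At the high dose it was -1.81 with no scaling, -1.85 with median scaling, -1.73 with scaling to 7 spike-in probes, -0.83 with normexp and -1.37 over those 8 genes. For the low over the high dose it was 2.04, 1.99 and 1.95 with these scalings, 1.92 with quantile normalization, 1.28 with normexp, and 2.0 with the brightest RefSeq probe, an alternative chosen after seeing the data. A looser threshold, a signal at least 25% above the other, counted 6 genes higher at the low dose (18.5% of all genes), 8 lower at the high dose (20.1%), and 1 gene, XRCC3 by its clone probe, higher at the high dose (33%) and lower for the low over the high dose (30%). The cause of these shifts was not tested. The median of all genes at the high dose was 0.10 and became -0.15 with no scaling, -0.19 with median scaling and -0.07 with spike-in probes. Of the single genes only XRCC3 changed sign, with its RefSeq probe or the mean of its probes. With normexp 6 genes were lower at the high dose and 7 higher for the low over the high dose. The shares of all genes that passed with normexp were not counted.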

Other observations

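Genes known chiefly from meiotic recombination were read as a list of 9. DMC1, SPO11, SYCP3 and MSH4 were not well above background on any array. MND1 and PSMC3IP, whose products form the HOP2-MND1 complex that stimulates strand exchange, were well above background on all arrays. MND1 read 1132 in control cells, 1660 after 10 μM and 127 after 100 μM, with log2 fold changes of 0.49 and -2.90, a fall of 7.47-fold at the high dose. PSMC3IP read 441, 1319 and 201, and was 2.87-fold higher at the low dose and 1.84-fold lower at the high dose. MSH5 read 424, 651 and 448 and did not pass 1.5-fold at either dose. SYCP1 lay close to background, at 23.5, 25.0 and 33.6, and HORMAD1 was well above background at the high dose only, at 31.5.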
